A study of Homo sapiens with 27 samples.

Results

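The 48 DNA repair and damage signalling genes were followed by RNA-seq and ribosome profiling in IMR90 cells, a strain of normal human fetal lung fibroblasts, in 5 states. The genes were chosen by symbol, and each matched 1 gene ID among the 60534 IDs shared by all 27 libraries. They comprise 11 genes of homologous recombination, 8 of the Fanconi anaemia pathway, 3 of mismatch repair and its exonuclease, 11 of damage signalling, 5 of end joining, 7 of base excision and single-strand break repair, and 3 of nucleotide excision repair. All 48 passed the filter on low counts in both assays, among 13291 protein-coding genes tested in RNA-seq and 11764 in Ribo-seq.

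DNA breaks are sensed by the MRE11-RAD50-NBN complex and by the kinases ATM and ATR, which signal through CHEK1, CHEK2, MDC1, RNF8, RNF168 and TP53BP1. A break can be joined directly by end joining at any time in the cell cycle, or copied from the sister chromatid by homologous recombination, which works in S and G2 phase. The Fanconi anaemia proteins repair crosslinks met by replication forks and hand over to recombination. Many genes of these last 2 pathways are known to be transcribed mainly in dividing cells. Senescent fibroblasts have left the cell cycle for good with DNA damage signalling still active, and quiescent fibroblasts have left it reversibly.

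Cycling cells were untreated and harvested below confluence. Quiescent cells were arrested by contact inhibition. Irradiated cells received 15 Gy of ionizing radiation and were harvested 10 days later as senescent cells. Etoposide cells received 3 treatments with 50 µM etoposide, a topoisomerase II poison that breaks DNA, over 10 days, and were likewise harvested as senescent. Thapsigargin cells were cycling cells treated for 3 h with 25 nM thapsigargin, which blocks the calcium pump of the endoplasmic reticulum, in a medium that the labels describe without antibiotics. Each state had 3 libraries of each assay, except 2 cycling RNA-seq, 2 thapsigargin RNA-seq and 2 thapsigargin Ribo-seq libraries. The labels do not say whether replicates were separate cultures, so the spread between them may be technical.

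Gene counts per library ranged from 20635503 to 57119841 in RNA-seq and from 1936976 to 19996104 in Ribo-seq, with 2652013 to 5556293 in irradiated and 1936976 and 2044900 in thapsigargin Ribo-seq. The thapsigargin libraries stood apart: unmapped reads were 1.35% and 1.40% in their RNA-seq, against 27.8% to 40.6% in the other RNA-seq libraries, their Ribo-seq reads mapped to several places at 65.2% and 66.9%, against 19.8% to 31.9% in the other Ribo-seq libraries, and their Ribo-seq counts follow another gene list than the other 12 Ribo-seq libraries. A label field of the thapsigargin RNA-seq samples calls them ribosome-protected fragments while their titles say RNA-seq, and the titles were followed here. If the field is right, the mRNA and efficiency values under thapsigargin do not measure mRNA. Treatment and library set therefore cannot be told apart in comparisons with thapsigargin. All 8 fibroblast markers reached a mean of 1 CPM (counts per 1e6 of the TMM-scaled library) in each state, and none of 6 epithelial markers did. Of 4 endothelial markers at most 1 reached that level in any state and assay, and of 4 leukocyte markers 1 did, in etoposide Ribo-seq. The summed leukocyte markers were 1.33 to 1.73 CPM in etoposide RNA-seq and at most 0.313 CPM in the other RNA-seq libraries, and their part in the etoposide results was not tested. The summed CPM of 16 markers of cycling cells in RNA-seq was 1584 to 1764 in cycling, 701 to 1056 in quiescent, 374 to 404 in irradiated, 355 to 378 in etoposide and 1472 to 1499 in thapsigargin libraries. This sum was lower in every arrested library than in every cycling one, and its part in the repair gene results below was not tested. In these bulk samples, fewer cells that express a gene and less RNA per cell cannot be told apart.

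Promoters are shown for the genes that carry the main contrast. RAD54L, BLM and FANCD2 had the largest mRNA falls in the senescent states among members whose promoter holds a searched motif. RNF8 and RAD50 were lowest when members were ranked by the larger of their absolute mRNA changes in irradiated and etoposide cells. Within irradiated or etoposide cells alone, other members changed less. Each window runs from 250 bases before to 30 bases after a RefSeq transcription start (GRCh38.p14), 5′ to 3′ on the gene's strand, which is the plus strand for all 5. Capitals mark matches to CCAAT (the NF-Y box), to the E2F-type motifs TTTCCCGC, TTTCGCGC, TTTGCCGC and TTTGGCGC, or to the CHR-type motif TTTGAA, on either strand, so that ATTGG is a CCAAT match on the opposite strand.
RAD54L, chr1:46247438-46247717: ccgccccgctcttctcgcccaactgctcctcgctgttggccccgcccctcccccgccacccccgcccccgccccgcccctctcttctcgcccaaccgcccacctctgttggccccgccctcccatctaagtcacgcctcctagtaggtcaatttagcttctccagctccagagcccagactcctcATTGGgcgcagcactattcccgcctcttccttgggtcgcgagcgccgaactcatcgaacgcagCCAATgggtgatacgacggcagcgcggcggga
BLM, chr15:90717096-90717375: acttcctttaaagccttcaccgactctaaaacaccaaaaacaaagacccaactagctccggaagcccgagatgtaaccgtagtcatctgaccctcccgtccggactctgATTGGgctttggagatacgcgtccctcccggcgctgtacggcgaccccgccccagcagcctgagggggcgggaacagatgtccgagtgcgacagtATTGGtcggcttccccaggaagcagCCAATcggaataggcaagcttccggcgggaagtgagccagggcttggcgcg
FANCD2, chr3:10026187-10026466: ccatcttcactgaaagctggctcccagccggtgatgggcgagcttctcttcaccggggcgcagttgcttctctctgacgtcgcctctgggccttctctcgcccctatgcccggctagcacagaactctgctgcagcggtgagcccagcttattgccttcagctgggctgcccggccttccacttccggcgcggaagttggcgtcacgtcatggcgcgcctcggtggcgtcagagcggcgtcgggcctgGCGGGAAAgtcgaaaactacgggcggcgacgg
RNF8, chr6:37353733-37354012: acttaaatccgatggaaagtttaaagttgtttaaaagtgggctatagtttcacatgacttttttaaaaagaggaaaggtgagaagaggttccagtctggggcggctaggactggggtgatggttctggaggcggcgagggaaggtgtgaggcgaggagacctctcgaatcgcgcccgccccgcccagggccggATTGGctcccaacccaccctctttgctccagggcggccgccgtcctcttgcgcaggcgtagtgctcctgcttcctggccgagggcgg
RAD50, chr5:132556727-132557006: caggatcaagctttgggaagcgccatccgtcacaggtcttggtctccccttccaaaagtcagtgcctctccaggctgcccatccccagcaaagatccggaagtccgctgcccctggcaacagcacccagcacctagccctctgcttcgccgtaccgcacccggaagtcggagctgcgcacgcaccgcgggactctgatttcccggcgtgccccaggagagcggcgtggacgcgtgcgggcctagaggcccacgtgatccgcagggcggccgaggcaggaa
The RAD54L window held 2 CCAAT matches and the BLM window 3. FANCD2 held a single match, to TTTCCCGC on the opposite strand across the start, RNF8 a single CCAAT match, and RAD50 none. RAD54L, BLM and FANCD2 were chosen among genes with a match, and RNF8 and RAD50 without that rule. The matches in these windows therefore do not compare falling with unchanged genes. RefSeq windows were found for 44 of the 48 genes, 63 windows in all because some genes have several starts. A CCAAT match was present in 54% of these windows, against 33.6% of all 35116 RefSeq windows of the same length, an E2F-type match in 14.3% against 3.14%, and a TTTGAA match in 11.1% against 14.5%. Over windows of protein-coding genes, as all members are, these shares were 34%, 3.9% and 12%. Of 22 genes with windows among those lower in both senescent states, 10 had a CCAAT match and 4 an E2F-type match. Of 14 genes with windows among those called in no arrested state, 11 had a CCAAT match and 2 an E2F-type match. Per gene these are 45.5% and 18.2% in the first set and 78.6% and 14.3% in the second, against 41.5% and 5.15% of 15843 protein-coding genes with windows.

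The first comparisons ask how mRNA for the repair genes differed between each arrested state and cycling cells. In irradiated cells 25 of the 48 genes fell and none rose, with 34.9% of all genes tested called (16.2% higher and 18.8% lower). In etoposide cells 30 fell and 1 rose, with 34.5% of all genes called (16.8% higher and 17.8% lower). In quiescent cells 13 fell and 1 rose, with 15.6% called (5.18% higher and 10.4% lower). A gene was called at an adjusted p under 0.05 in edgeR's quasi-likelihood test, with Benjamini-Hochberg adjustment over all genes tested. At an unadjusted p under 0.05, 2 genes were higher in irradiated cells, against 21.7% of all genes, and DESeq2 called 1 higher, against 16.7%. The median log2 fold change of the 48 genes was -0.45 in irradiated, -0.64 in etoposide and -0.23 in quiescent cells, against 0.03, 0.00 and 0.02 over all genes tested. Of the genes called, 24 fell in both senescent states, and 13 of these fell in quiescent cells too. All 3 comparisons share the same 2 cycling libraries. The same overlaps were not counted over all genes, so 24 and 13 have no background share beside them.

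**Figure D1:**
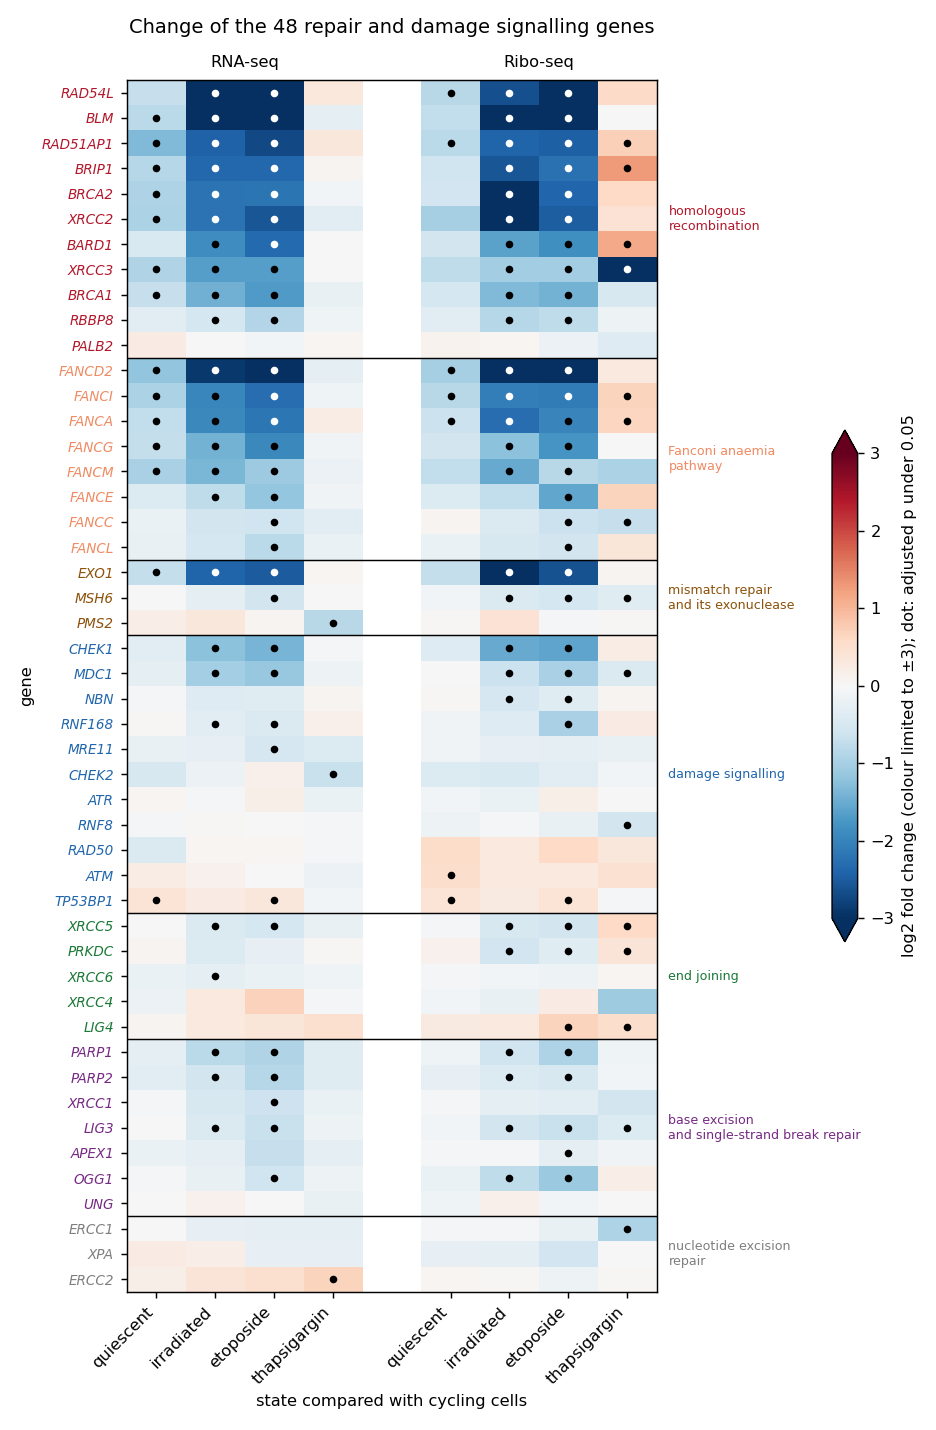
Log2 fold change of each of the 48 genes (rows, grouped by role and coloured by it) against cycling cells in 4 states (columns), for RNA-seq at left and Ribo-seq at right. Blue is lower and red is higher, and a dot marks an adjusted p under 0.05. Most of the dark blue cells lie in the homologous recombination and Fanconi anaemia rows of the irradiated and etoposide columns, and EXO1 in the mismatch repair rows is as dark. XRCC3 under thapsigargin in Ribo-seq rests on 0 counts in both libraries.

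Homologous recombination had the lowest medians: 10 of its 11 genes fell in each senescent state and 7 of 11 in quiescent cells, with median log2 fold changes of -2.21 in irradiated, -2.33 in etoposide and -0.81 in quiescent cells. RAD54L, a motor protein of the strand exchange step, stood at 6.31 and 6.49 CPM in the 2 cycling RNA-seq libraries and at 0.834, 0.704 and 0.55 CPM in the irradiated ones. Every irradiated library was below every cycling one, and RAD54L (ENSG00000085999, chr1:46247688-46278473) fell by 3.19 on the log2 scale ± 0.37 (SE, adjusted p = 2.14e-05 in edgeR), or 9.13-fold. In etoposide cells BLM (chr15:90717346-90816166), the helicase mutated in Bloom syndrome that dissolves joined recombination intermediates, fell furthest. Its mRNA was 17.8 and 15.5 CPM in cycling and 1.78, 1.71 and 1.21 CPM in etoposide libraries, a log2 fold change of -3.41 ± 0.26 (SE, adjusted p = 3.79e-07 in edgeR). In quiescent cells the leading gene was RAD51AP1, an accessory factor of recombination. It stood at 21.1 and 18.8 CPM in cycling against 5.80, 7.55 and 10.8 CPM in quiescent libraries, without overlap, for a log2 fold change of -1.31 ± 0.26 (SE, adjusted p = 0.00466 in edgeR), and the call was lost without cycling library 1 (adjusted p = 0.0528). BRCA1, BRCA2, BRIP1, XRCC2 and XRCC3 were also called lower in all 3 arrested states. PALB2, which bridges BRCA1 and BRCA2, was the 1 gene of this group not called in any of them, at 24.5 and 29.7 CPM in cycling and 23.4 to 38.9 CPM in the 9 arrested libraries.

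The Fanconi anaemia genes followed with 6 of 8 lower in irradiated, 8 of 8 in etoposide and 5 of 8 in quiescent cells. FANCD2 (chr3:10026437-10101932), the protein that is marked with ubiquitin at crosslinks, led this group in all 3 states. FANCD2 mRNA was 34.6 and 31.9 CPM in cycling, 9.84, 17.6 and 16.2 CPM in quiescent, 4.55, 4.73 and 4.09 CPM in irradiated, and 4.54, 3.66 and 3.67 CPM in etoposide libraries. No arrested library reached the cycling range, and no senescent library reached the quiescent one. Near-identical copies of FANCD2 elsewhere in the genome make these counts uncertain. The log2 fold changes were -1.19 ± 0.21, -2.90 ± 0.22 and -3.07 ± 0.22 (SE, adjusted p = 0.00231, 5.27e-07 and 1.9e-07 in edgeR) in quiescent, irradiated and etoposide cells. FANCI, its partner, and FANCA, FANCG and FANCM were called lower in all 3 states. FANCL, the ubiquitin ligase of the pathway, and FANCC were called lower in etoposide cells, and in irradiated cells the log2 fold changes of the 8 genes ranged from -2.90 to -0.52.

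Among the mismatch repair genes EXO1 (chr1:241847986-241889939), the exonuclease that also resects breaks for recombination, fell in all 3 states. EXO1 mRNA was 24.9 and 19.9 CPM in cycling, 11.2, 16.5 and 13.4 CPM in quiescent, 3.83, 4.65 and 4.24 CPM in irradiated and 4.93, 3.89 and 3.07 CPM in etoposide libraries. The senescent libraries all lay below the quiescent ones. Its log2 fold change was -2.40 ± 0.22 in irradiated, -2.50 ± 0.22 in etoposide and -0.71 ± 0.22 in quiescent cells (SE, adjusted p = 3.55e-06, 1.83e-06 and 0.0405 in edgeR), and the quiescent call was lost without cycling library 1 or 2 or quiescent library 1 (adjusted p = 0.339, 0.0759 and 0.116). In RNA-seq MSH6, a subunit of the main mismatch sensor, fell in etoposide cells, and PMS2 was called in none of the 3 states. MSH6 footprints were called lower in both senescent states.

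Damage signalling was mixed. In irradiated cells 3 of its 11 genes fell (27.3%, against 34.9% of all genes called), in etoposide cells 4 fell and 1 rose (45.5%, against 34.5%), and in quiescent cells 1 rose. The median log2 fold change of the role was -0.17 in irradiated and -0.02 in etoposide cells. The largest fall was in CHEK1 (chr11:125625136-125681124), the S-phase checkpoint kinase that acts below ATR. CHEK1 mRNA was 50.6 and 41.4 CPM in cycling, 21.0, 19.4 and 18.5 CPM in irradiated and 21.0, 17.1 and 14.9 CPM in etoposide libraries. Both senescent groups lay below the cycling pair, with log2 fold changes of -1.23 ± 0.19 and -1.38 ± 0.19 (SE, adjusted p = 0.000255 and 9.11e-05 in edgeR). MDC1, which reads phosphorylated histone at breaks, and RNF168, which spreads ubiquitin there, also fell in both. TP53BP1 (chr15:43403061-43510640), which holds broken ends back from resection, rose. Its mRNA was 104 and 118 CPM in cycling, 142, 159 and 142 CPM in quiescent and 136, 139 and 149.6 CPM in etoposide libraries. In irradiated libraries it was 132, 134 and 131 CPM, also above both cycling ones. It was not called there, though its unadjusted p was under 0.05 in edgeR. For the called states the values were as follows. The log2 fold change was 0.41 ± 0.11 in quiescent and 0.35 ± 0.11 in etoposide cells (SE, adjusted p = 0.0205 and 0.0239 in edgeR), and without cycling library 1 both calls were lost (adjusted p = 0.243 and 0.237). The quiescent call was also lost without cycling library 2, and the etoposide call without etoposide library 2 or 3 (adjusted p = 0.0553, 0.0503 and 0.0788). The kinases ATM and ATR, the break sensors NBN and RAD50, RNF8 and CHEK2 were called in no arrested state in RNA-seq, and MRE11 was called lower in etoposide cells alone. RNF8 stood at 34.7 and 37.6 CPM in cycling and 32.5 to 38.4 CPM in the 9 arrested libraries, and the 2 groups overlapped. In Ribo-seq, by contrast, NBN was called lower in both senescent states against cycling cells. ATR, CHEK2, RAD50, RNF8 and MRE11 were not called there in an arrested state.

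**Figure D2:**
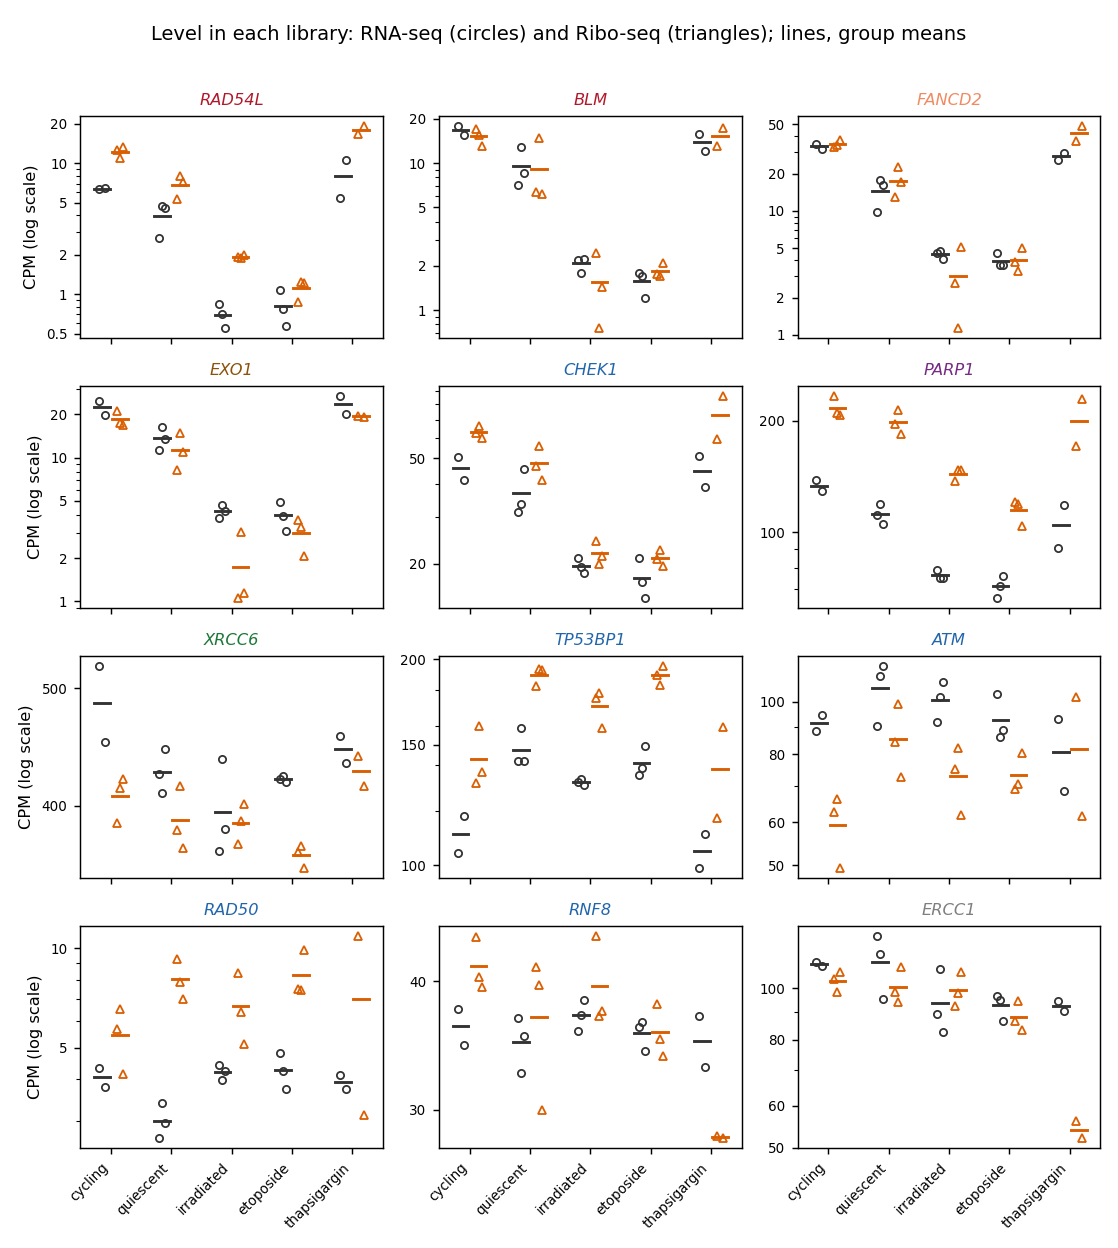
Level of 12 of the genes in each library in CPM (log scale, axis not starting at 0), by state, for RNA-seq (circles) and Ribo-seq (triangles), with lines at group means. In RNA-seq RAD54L, BLM, FANCD2 and EXO1 step down from cycling to quiescent to senescent libraries, and RNF8 stays between 32.5 and 38.4 CPM. In Ribo-seq the BLM values of quiescent and cycling libraries overlap.

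Of 5 end joining genes, 2 fell in irradiated and 1 in etoposide cells. Of 7 base excision and single-strand break repair genes 3 and 5 fell, with medians of -0.43 and -0.66. Over all genes tested, 34.9% were called in irradiated cells (18.8% lower) and 34.5% in etoposide cells (17.8% lower). With so few genes in these 2 roles, the counts are not set apart from those shares. XRCC5 (chr2:216109348-216206293), the Ku80 subunit of the ring that first binds broken ends, had the largest fall in end joining, from 594 and 540.4 CPM in cycling to 405, 425 and 435 CPM in irradiated and 437, 371 and 373 CPM in etoposide libraries. The groups did not overlap, and the log2 fold changes were -0.43 ± 0.12 and -0.53 ± 0.12 (SE, adjusted p = 0.0149 and 0.00446 in edgeR). Without cycling library 1 both calls were lost (adjusted p = 0.139 and 0.0605), and the irradiated call also without irradiated library 1 (adjusted p = 0.0533). XRCC6, the Ku70 subunit, was called lower in irradiated cells (log2 fold change -0.30, adjusted p = 0.046 in edgeR), a call lost under 12 alternatives, and PRKDC, XRCC4 and LIG4 were not called in RNA-seq against cycling cells. PARP1 (chr1:226360691-226408093), which detects single-strand breaks, led base excision and single-strand break repair. It was 138 and 129 CPM in cycling, 79.1, 75.2 and 74.9 CPM in irradiated and 66.2, 71.5 and 76.2 CPM in etoposide libraries, with log2 fold changes of -0.81 ± 0.12 and -0.91 ± 0.12 (SE, adjusted p = 0.000212 and 7.67e-05 in edgeR). PARP2 and LIG3, which seals nicks, fell in both senescent states as well, and OGG1, which removes oxidized guanine, and XRCC1 were called lower in etoposide cells. None of the 3 nucleotide excision repair genes, ERCC1, ERCC2 and XPA, was called in an arrested state in either assay by edgeR.

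**Figure D3:**
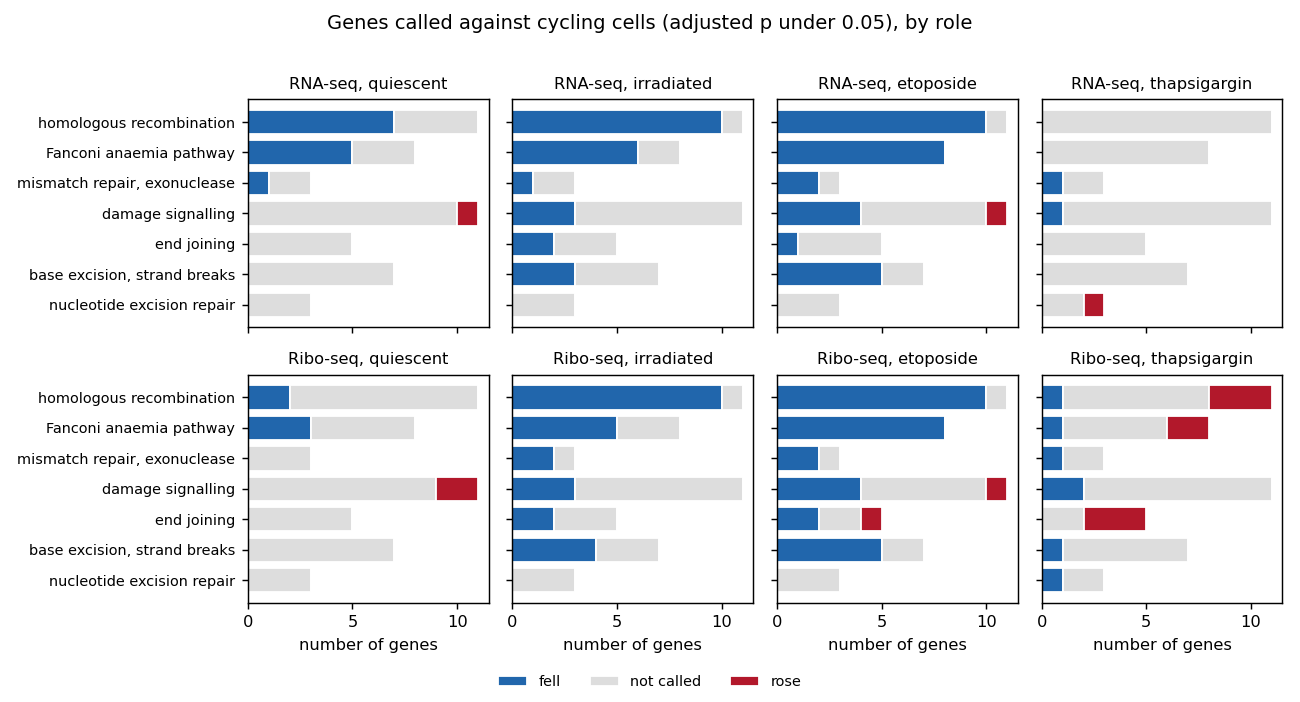
Number of genes called lower (blue), called higher (red) or not called (grey) against cycling cells in each role, for RNA-seq (top) and Ribo-seq (bottom) in 4 states. Blue fills 10 of 11 homologous recombination bars in both senescent states and 0 of 3 nucleotide excision repair bars.

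The quiescent result rested on few libraries. Without cycling library 1 the 14 quiescent calls became 1, without cycling library 2 they became 6, without quiescent library 1 they became 8, and a fit of only these 2 groups called 5. The senescent counts did not depend on 1 library in this way: with each RNA-seq library left out in turn, 19 to 29 genes were called in irradiated and 24 to 33 in etoposide cells. With all thapsigargin libraries left out, an alternative added after the data were seen, 14, 29 and 33 genes were called in quiescent, irradiated and etoposide cells.

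Senescent cells were next compared with quiescent cells, which the labels call contact-inhibited. The summed 16 cycling markers were lower in every quiescent library than in every cycling one. MKI67 mRNA, however, was 148 CPM in quiescent library 2, within the cycling range of 144 to 167 CPM. It was 41.3 and 53.4 CPM in the other quiescent libraries and 4.99 to 18.2 CPM in senescent ones. Whether the quiescent group still held dividing cells was not tested. In irradiated cells 20 of the 48 genes were lower than in quiescent cells and none higher, with 18.7% of all genes called (9.01% higher and 9.71% lower). At an unadjusted p under 0.05, 1 gene was higher, against 16.3% of all genes, and DESeq2 called 0 higher, against 10.4%. In etoposide cells 27 were lower and 3 higher, with 41.7% called (21.1% higher and 20.6% lower). Again homologous recombination led: 9 of 11 genes were lower in irradiated and 10 of 11 in etoposide cells. RAD54L mRNA was 2.69, 4.72 and 4.52 CPM in quiescent libraries, all above the irradiated ones, a log2 fold change of -2.50 ± 0.35 (SE, adjusted p = 0.000261 in edgeR). BLM mRNA was 7.07, 12.8 and 8.59 CPM in quiescent libraries, all above the etoposide ones, a log2 fold change of -2.60 ± 0.24 (SE, adjusted p = 4.11e-06 in edgeR). FANCD2 was lower by 1.71 ± 0.20 in irradiated (adjusted p = 6.82e-05 in edgeR) and its log2 fold change in etoposide cells was -1.88 ± 0.20 (SE, adjusted p = 1.16e-05 in edgeR). In the other roles the largest falls in irradiated cells were in EXO1 (log2 fold change -1.69), CHEK1 (-0.91), PARP1 (-0.55) and PRKDC (-0.48), and in etoposide cells in EXO1 (-1.79), CHEK1 (-1.07), LIG3 (-0.65) and XRCC5 (-0.55). The PRKDC call was at an adjusted p of 0.0497 and was lost when any 1 of 10 RNA-seq libraries was left out. The 3 genes higher in etoposide than in quiescent cells were CHEK2, XRCC4 and RAD50. CHEK2, the checkpoint kinase below ATM, stood at 19.0, 14.9 and 14.2 CPM in etoposide and 11.6, 10.5 and 8.99 CPM in quiescent libraries (log2 fold change 0.63 ± 0.18, SE, adjusted p = 0.0121 in edgeR). XRCC4, the scaffold of the end joining ligase LIG4, stood at 25.7, 20.2 and 16.5 CPM in etoposide and 10.3, 10.0 and 14.2 CPM in quiescent libraries (log2 fold change 0.85 ± 0.24, SE, adjusted p = 0.0108 in edgeR). Neither gene's groups overlapped, and without etoposide library 1 both calls were lost (adjusted p = 0.0586 and 0.0506). CHEK2 counts are also uncertain because near-identical copies lie elsewhere in the genome. RAD50, the ATPase of the break sensor, stood at 4.82, 4.25 and 3.75 CPM against 2.66, 3.40 and 2.94 CPM (log2 fold change 0.51, adjusted p = 0.0325 in edgeR), and its call was lost without etoposide library 1 or 2 or quiescent library 1 or 3 (adjusted p = 0.121, 0.0775, 0.0941 and 0.0531). The summed cycling markers also differed here, at 701 to 1056 CPM in quiescent and 355 to 404 CPM in senescent libraries.

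The 2 senescent states were then compared with each other. In RNA-seq 2 of the 48 genes differed, both higher in irradiated cells, with 22.6% of all genes called (9.68% higher and 12.9% lower). FANCG stood at 8, 8.45 and 7.15 CPM in irradiated and 5.77, 5.34 and 5.45 CPM in etoposide libraries (log2 fold change 0.51 ± 0.16, SE, adjusted p = 0.0343 in edgeR). OGG1 stood at 19.6, 22.6 and 18.6 CPM against 15.4, 15.4 and 15.7 CPM (log2 fold change 0.39 ± 0.12, SE, adjusted p = 0.0375 in edgeR). The groups did not overlap for either gene. In Ribo-seq 1 gene differed, with 21.7% of all genes called (7.77% higher and 13.9% lower): RNF168 footprints were 23.4, 20.4 and 21.1 CPM in irradiated and 13.8, 14.6 and 14.9 CPM in etoposide libraries (log2 fold change 0.59 ± 0.19, SE, adjusted p = 0.0409 in edgeR). Each of these 3 calls was lost without any 1 of the 6 irradiated and etoposide libraries of its assay. At an unadjusted p under 0.05, 9 genes passed in RNA-seq, all higher in irradiated cells, against 34.8% of all genes (17.5% higher and 17.3% lower). In Ribo-seq 7 passed, 6 higher and 1 lower, against 32.7% (14.3% higher and 18.4% lower). DESeq2 called 2 in RNA-seq and 4 in Ribo-seq, all higher, against 22.6% and 25% of all genes. The median log2 difference between the 2 senescent states over the 48 genes was 0.12 in RNA-seq and 0.07 in Ribo-seq.

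Ribosome footprints, the fragments of mRNA that ribosomes shield from RNase, had their lowest medians in homologous recombination and the Fanconi anaemia pathway in both senescent states, as mRNA did. In irradiated cells footprints of 26 genes fell and none rose, with 39.8% of all genes called (17.2% higher and 22.6% lower), and in etoposide cells 31 fell and 2 rose, with 34% called (16.4% higher and 17.6% lower). In irradiated cells 2 genes were higher at an unadjusted p under 0.05, against 21.8% of all genes, and DESeq2 called 2 higher, against 20.8%. In quiescent cells 5 fell and 2 rose, with 21.7% called (7.09% higher and 14.6% lower). Genes called lower in both assays numbered 22 in irradiated, 28 in etoposide and 4 in quiescent cells, against 16.5%, 12.9% and 9.53% of the 11713 genes tested in both. No member was called in opposite directions in the 2 assays in these comparisons, against 0.0256%, 0.0171% and 0% of all genes. Homologous recombination had 10 of 11 genes lower in each senescent state, with PALB2 again not called. BRCA2, a tumour suppressor of recombination, had the largest fall of that group in irradiated cells, from 20.4, 17.6 and 17.1 CPM in cycling to 2.98, 2.27 and 0.571 CPM (log2 fold change -3.15 ± 0.38, SE, adjusted p = 2.72e-05 in edgeR). BLM and XRCC2 were close behind, at -3.14 and -3.13. In etoposide cells it was RAD54L, from 12.5, 11 and 13.2 CPM in cycling to 0.876, 1.25 and 1.21 CPM (log2 fold change -3.44 ± 0.27, SE, adjusted p = 3.86e-07 in edgeR). FANCD2 footprints were 33.0, 34.2 and 37.6 CPM in cycling, 2.63, 1.13 and 5.14 CPM in irradiated and 3.85, 3.27 and 5.03 CPM in etoposide libraries, with log2 fold changes of -3.52 ± 0.34 and -3.11 ± 0.31 (SE, adjusted p = 3.99e-06 and 3.9e-06 in edgeR). The irradiated values rest on few reads, 3 to 18 FANCD2 counts a library. Irradiated footprints of BRCA2, BLM, XRCC2 and EXO1 and etoposide footprints of RAD54L were at similarly low CPM. XRCC2, for example, stood at 0.702, 0.756 and 1.14 CPM in irradiated libraries. The sizes of these falls are imprecise too.

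The other roles had their largest footprint falls in EXO1, CHEK1, PRKDC or XRCC5, and OGG1. EXO1 footprints were 21.2, 17.5 and 16.9 CPM in cycling, 1.05, 3.02 and 1.14 CPM in irradiated and 3.68, 3.27 and 2.08 CPM in etoposide libraries (log2 fold changes -3.56 ± 0.38 and -2.61 ± 0.31, SE, adjusted p = 8.21e-06 and 2.21e-05 in edgeR). CHEK1 footprints were 62.6, 66.2 and 59.5 CPM in cycling, 24.4, 20.0 and 21.4 CPM in irradiated and 20.9, 22.6 and 19.6 CPM in etoposide libraries (log2 fold changes -1.50 ± 0.16 and -1.58 ± 0.16, SE, adjusted p = 9.61e-06 and 4.15e-06 in edgeR). In end joining PRKDC, the catalytic subunit of DNA-PK, led in irradiated cells with a log2 fold change of -0.57 ± 0.13, and XRCC5 led in etoposide cells with -0.56 ± 0.12 (SE, adjusted p = 0.00436 and 0.0022 in edgeR). OGG1 led base excision repair with -0.75 ± 0.23 in irradiated and -1.12 ± 0.22 in etoposide cells (SE, adjusted p = 0.0168 and 0.00149 in edgeR), and its irradiated call was lost without cycling Ribo-seq library 1 or irradiated Ribo-seq library 1 (adjusted p = 0.0613 and 0.09). Footprints of TP53BP1 rose in quiescent and etoposide cells, from 132, 159.7 and 137 CPM in cycling to 183, 194 and 193 CPM and to 189.8, 184 and 195 CPM. Both groups lay above cycling, with log2 fold changes of 0.41 ± 0.11 each (SE, adjusted p = 0.0172 and 0.0116 in edgeR), and without cycling Ribo-seq library 1 both calls were lost (adjusted p = 0.0755 and 0.0542). In irradiated libraries TP53BP1 footprints were 176, 179 and 159 CPM, not called by edgeR but called higher by DESeq2. LIG4, the ligase of end joining, rose in etoposide cells from 34.5, 30.8 and 25.6 CPM to 49.1, 44.4 and 51.5 CPM (log2 fold change 0.67 ± 0.17, SE, adjusted p = 0.00637 in edgeR). ATM rose in quiescent cells from 62.6, 66.1 and 49.4 CPM to 84.2, 99.0 and 72.7 CPM (log2 fold change 0.52 ± 0.17, SE, adjusted p = 0.0476 in edgeR), a call lost under 12 alternatives.

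The largest called footprint falls in quiescent cells in the Fanconi anaemia pathway and homologous recombination were in FANCD2, at 13, 22.7 and 17.1 CPM (log2 fold change -0.99 ± 0.25, SE, adjusted p = 0.0136 in edgeR), and RAD54L, at 5.30, 7.97 and 7.22 CPM (log2 fold change -0.84 ± 0.20, SE, adjusted p = 0.00895 in edgeR). XRCC2, at -0.99, was not called (adjusted p = 0.246). The FANCD2 call was lost without cycling Ribo-seq library 3 (adjusted p = 0.0618). The 7 quiescent calls became 4 or 3 without cycling Ribo-seq library 1 or 3, 16 or 15 without thapsigargin Ribo-seq library 1 or 2, and 15 without all thapsigargin libraries. Against quiescent cells, footprints of 18 genes were lower in irradiated cells and none higher, with 14.5% of all genes called (6.92% higher and 7.62% lower), and 25 were lower in etoposide cells and none higher, with 35.3% called (19.2% higher and 16.1% lower). In each of these comparisons 1 gene was higher at an unadjusted p under 0.05, against 13.1% and 23.7% of all genes, and DESeq2 called 0 higher in irradiated and 1 in etoposide cells, against 9.88% and 19.2%. EXO1 led in irradiated cells with a log2 fold change of -2.85 ± 0.38 and RAD54L in etoposide cells with -2.60 ± 0.27 (SE, adjusted p = 0.000188 and 1.08e-05 in edgeR). Next in irradiated cells came BRCA2 (-2.57), FANCD2 (-2.53), CHEK1 (-1.12), PRKDC (-0.70) and PARP1 (-0.46), each the largest fall among the called genes of its role. OGG1, at -0.56, was not called.

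**Figure D4:**
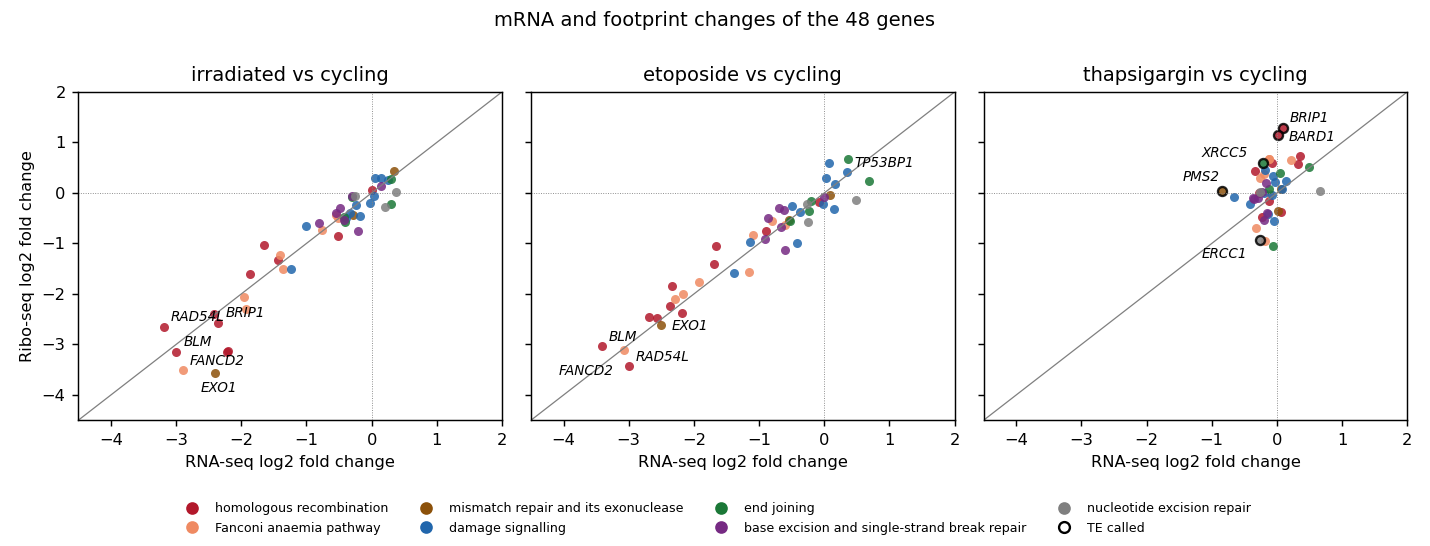
Ribo-seq against RNA-seq log2 fold change from cycling cells for each gene, coloured by role, in irradiated, etoposide and thapsigargin cells, with the line of equal change in grey and a black ring where translational efficiency was called. Points follow the line in both senescent states, from FANCD2, BLM and RAD54L at lower left to genes near 0. Under thapsigargin they spread along the vertical axis. XRCC3 under thapsigargin, with 0 footprint counts, is not drawn.

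Translational efficiency, the ratio of footprints to mRNA for a gene, was tested as the interaction of assay and state. No member was called in quiescent, irradiated or etoposide cells against cycling cells, nor between the senescent states, where 0%, 0.0256%, 0.0683% and 0% of 11713 genes were called in that order by edgeR. Of these, 0.0171% were higher and 0.00854% lower in irradiated cells, and 0.0256% higher and 0.0427% lower in etoposide cells. At an unadjusted p under 0.05, 1, 1, 2 and 1 members passed, against 3.34%, 6.1%, 3.79% and 5.14% of all genes, and DESeq2 called 0 members in each. The log2 changes of efficiency over the 48 genes ranged from -0.49 to 1.01 in quiescent, -1.15 to 0.64 in irradiated and -0.64 to 0.60 in etoposide cells. EXO1 had the lowest adjusted p in irradiated cells, 0.661 in edgeR. Against quiescent cells no member was called either, with 0.0171% of all genes called in irradiated and 0.0512% in etoposide cells by edgeR, 2 and 3 members at an unadjusted p under 0.05 (2.74% and 6.82% of all genes), and 0 by DESeq2 (0.305% and 0.783%). The RNA-seq and Ribo-seq counts of these states follow different gene lists, of which the shared IDs were used.

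Few repair genes were called in RNA-seq after short thapsigargin treatment. Against cycling cells 1 gene rose and 2 fell, with 24.5% of all genes called (11.7% higher and 12.8% lower). PMS2, the mismatch repair endonuclease subunit, stood at 12.8 and 12.5 CPM in thapsigargin against 22.3 and 22.9 CPM in cycling libraries (log2 fold change -0.84 ± 0.14, SE, adjusted p = 0.00101 in edgeR). CHEK2 stood at 10.9 and 7.34 CPM against 15.5 and 13.1 CPM (log2 fold change -0.66 ± 0.22, SE, adjusted p = 0.0405 in edgeR). ERCC2, the helicase XPD of nucleotide excision repair and transcription, stood at 48.4 and 72.1 CPM against 38.7 and 37.5 CPM (log2 fold change 0.66 ± 0.19, SE, adjusted p = 0.0234 in edgeR). The groups did not overlap for any of the 3. The CHEK2 and ERCC2 calls were lost without either cycling library or thapsigargin library 2 (adjusted p from 0.079 to 0.268), and the PMS2 call was kept under every alternative. PMS2 and CHEK2, like FANCD2, have near-identical copies elsewhere in the genome, so their counts are uncertain, and reads mapping to several places made up 38% and 19.7% of reads in the thapsigargin RNA-seq libraries and 9.43% to 33.4% in the others. Their part in these calls was not tested. With either cycling library left out, PMS2 was the 1 gene still called.

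Footprints under thapsigargin changed in 15 of the 48 genes, 8 higher and 7 lower, with 44.4% of all genes called (20% higher and 24.4% lower). The rises included 3 homologous recombination genes, BRIP1, BARD1 and RAD51AP1, 2 Fanconi anaemia genes, FANCA and FANCI, and 3 end joining genes, XRCC5, PRKDC and LIG4. BRIP1 (chr17:61679139-61863528), a helicase partner of BRCA1, stood at 88.3 and 64.2 CPM against 38.0, 29.8 and 25.7 CPM in cycling (log2 fold change 1.29 ± 0.26, SE, adjusted p = 0.0013 in edgeR). BARD1, the partner of BRCA1 in its ubiquitin ligase, stood at 68.1 and 37.0 CPM against 29.1, 22.7 and 19.4 CPM, and its call was lost without thapsigargin Ribo-seq library 1 (adjusted p = 0.0923). FANCI stood at 109 and 88.2 CPM against 65.3, 59.8 and 60.9 CPM (log2 fold change 0.67 ± 0.19, SE, adjusted p = 0.0129 in edgeR), a call lost without thapsigargin Ribo-seq library 1 (adjusted p = 0.114). XRCC5 stood at 1453 and 1480.4 CPM against 1045, 1038 and 823 CPM (log2 fold change 0.60 ± 0.13, SE, adjusted p = 0.00228 in edgeR). ERCC1 (chr19:45407334-45451547), the partner of the XPF nuclease, fell to 56.1 and 52.2 CPM from 104, 98.1 and 107 CPM (log2 fold change -0.93 ± 0.12, SE, adjusted p = 5.79e-05 in edgeR). Among called genes, the largest falls in the other roles were in FANCC (log2 fold change -0.69), RNF8 (-0.55), LIG3 (-0.41) and MSH6 (-0.36), with adjusted p from 0.0227 to 0.0437 in edgeR, and all 4 calls were lost without thapsigargin Ribo-seq library 1 (adjusted p from 0.0637 to 0.245). FANCM (-0.96), XRCC4 (-1.06) and XRCC1 (-0.54) had low values too and were not called. XRCC3, a recombination gene, had 0 counts in both thapsigargin libraries and 165 in the 3 cycling ones. With 3 counts over both libraries as the floor, it was at least 6.27-fold lower, and this comparison crosses the 2 gene lists. The thapsigargin pair disagreed for some genes: XRCC2 stood at 0 and 20.4 CPM and XRCC4 at 2.18 and 22.4 CPM. The 15 calls became 9 or 7 without cycling Ribo-seq library 1 or 2, and a fit of only these 2 groups called 7.

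Translational efficiency under thapsigargin was called for 6 of the 48 genes, with 20.8% of all genes called (9.46% higher and 11.3% lower). Log2 efficiency was higher for BRIP1 (1.23 ± 0.38), BARD1 (1.16 ± 0.36), PMS2 (0.90 ± 0.25) and XRCC5 (0.84 ± 0.19), with adjusted p of 0.0258, 0.0238, 0.014 and 0.00351 in edgeR. It was lower for ERCC1 (-0.64 ± 0.20, SE, adjusted p = 0.0279 in edgeR) and for XRCC3, which had no footprint counts. For PMS2 the footprints were 14.7 and 16.7 CPM against 18.0, 15.1 and 13 CPM in cycling, so the ratio moved with its lower mRNA. The BRIP1, BARD1 and ERCC1 calls were lost without cycling RNA-seq library 1 (adjusted p from 0.0628 to 0.0859). The 6 calls became 3 without cycling RNA-seq library 1 or cycling Ribo-seq library 3, 14 without thapsigargin Ribo-seq library 2, and 1 in a fit of only these 2 groups.

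Other repair genes, 96 that are not among the 48, were read beside them. In RNA-seq 22 of them fell and 9 rose in irradiated cells, and 32 fell and 9 rose in etoposide cells, with median log2 fold changes of -0.05 and -0.24. These are 32.3% and 42.7% of the list, against 34.9% and 34.5% of all genes. The largest falls were in POLQ, the polymerase of alternative end joining (-2.71 in irradiated and -3.35 in etoposide cells), and NEIL3, a glycosylase of replicating cells (-2.91 and -3.21). The largest mRNA rise in each was in TDP2, which frees DNA ends from trapped topoisomerase II (1.04 ± 0.16 in irradiated and 0.70 ± 0.16 in etoposide cells, SE, adjusted p = 0.000236 and 0.00395 in edgeR). TDP2 footprints were called higher in irradiated cells (0.59 ± 0.14, SE, adjusted p = 0.00429 in edgeR). In etoposide cells they were not among the 3 largest called footprint rises of the list. In quiescent cells 7 fell and 2 rose, 9.38% of the list against 15.6% of all genes. All 16 markers of cycling cells fell in irradiated cells, 15 in etoposide cells and 12 in quiescent cells, with medians of -2.29, -2.60 and -0.94.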

How the data were processed

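RNA-seq measured mRNA and Ribo-seq measured ribosome footprints in IMR90 cells. The authors deposited raw counts of reads per gene for each library in STAR's layout, and STAR 2.7.10b, hg38, bcl2fastq and DESeq2 1.36.0 are named per the submitters' processing notes, with no role given. The annotation is not given in the sources used here. Reads mapped to several places or overlapping several genes are not in these counts. From the deposited counts, the reverse-strand column was used for RNA-seq and the forward-strand column for Ribo-seq, where 3.56% to 10.7% of counts lay on the other strand. The lines naming no gene were left out. All libraries were restricted to 60534 gene IDs shared by the 2 gene lists used (62703 and 60664 IDs). Coordinates and promoters come from RefSeq GRCh38.p14, the same build as hg38.

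Counts were scaled by TMM and tested with edgeR 4.0.16 in R 4.3.3 (filterByExpr, robust quasi-likelihood F test, all 5 states in 1 fit), with Benjamini-Hochberg adjustment over all genes tested and a threshold of 0.05. Translational efficiency was the interaction of assay and state over 27 libraries, with 11713 genes tested. The fits were tested on simulated data. CPM values were not corrected for gene length, so levels are compared only within a gene. Several members overlap other genes, such as XRCC3 with KLC1 and FANCA with ZNF276.

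The members and lists were chosen with earlier results of these data known. In each comparison, values in full were given mainly for the called gene with the largest rise and fall of each role and for genes with called efficiency. Other genes named with values, such as PALB2, XRCC6, RNF8, XRCC2 and XRCC4, were chosen after their values were seen. From the other repair genes at most the 3 largest rises and falls were named. The alternatives were median-ratio size factors, DESeq2 1.42.0, no filter on low counts, only the groups compared, the replicate number as a block, unstranded counts and each library left out. Leaving out all thapsigargin libraries was added after the data were seen.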

Additional observations from a re-analysis of the deposited data

Results flagged for a closer look

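In 3 instances the 2 ways of inducing senescence differed in a direct test between irradiated and etoposide cells. RNF168 footprints were higher in irradiated cells, with a log2 fold change of 0.59 (adjusted p = 0.0409 in edgeR). FANCG mRNA was higher by 0.51 (adjusted p = 0.0343 in edgeR) and OGG1 mRNA by 0.39 (adjusted p = 0.0375 in edgeR). In all 3 the 3 irradiated libraries lay above the 3 etoposide ones, and no gene was called in both assays. The 2 mRNA calls and the 1 footprint call stand against 22.6% and 21.7% of all genes called in the same comparisons, and each was lost when any 1 of the 6 irradiated and etoposide libraries of its assay was left out.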

How the results depend on the processing

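Of 256 called values of single members, 166 were called under every alternative. The irradiated and etoposide counts against cycling and against quiescent cells stayed within 1.5 times under every alternative. Members called in RNA-seq between irradiated and etoposide cells went from 2 to 1 with median-ratio size factors, unstranded counts or no thapsigargin libraries, to 0 with no filter and to 6 with only these groups. In Ribo-seq the 1 call became 4 with DESeq2, 3 with median-ratio size factors, 0 with no filter or unstranded counts, 7 with only these groups, 2 with the replicate block and 5 with no thapsigargin libraries. For quiescent cells, RNA-seq calls went from 14 to 5 with only these groups, and Ribo-seq calls from 7 to 15 with no thapsigargin libraries. For thapsigargin with only these groups, calls went from 3 to 1 in RNA-seq, 15 to 7 in Ribo-seq and 6 to 1 in efficiency. With each library left out in turn, RNA-seq calls ranged from 1 to 14 in quiescent, 19 to 29 in irradiated, 24 to 33 in etoposide and 1 to 3 in thapsigargin cells, 16 to 23 and 25 to 31 in irradiated and etoposide against quiescent cells, and 0 to 3 between the senescent states. Ribo-seq calls ranged in the same order from 3 to 16, 23 to 33, 24 to 34, 7 to 17, 13 to 23, 21 to 27 and 0 to 6, and efficiency calls under thapsigargin from 3 to 14. XRCC2, not called under thapsigargin (0.44 for footprints and 0.81 for efficiency), was called higher without thapsigargin Ribo-seq replicate 1 (1.41 and 1.78) and lower without replicate 2 (-9.14 and -9.90), where the library left had 0 counts, so these 2 fitted values are no measure of size. The cause of the other changes was not tested. Not every same-numbered pair of libraries deviated together. The median correlation was 0.066 over 23 pairs in RNA-seq and 0.028 over 26 in Ribo-seq. Over 13 pairs of RNA-seq with Ribo-seq it was 0.104 (-0.035 to 0.627), against -0.065 for different numbers (-0.594 to 0.449). Same-numbered pairs thus ran higher between the assays, and a shared culture was not tested. The numbers were not taken as pairs, and the replicate block moved no other count by over 1.5 times. Low footprint counts in irradiated and thapsigargin libraries, and for RAD54L in etoposide libraries, limit precision there.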
